A study of Homo sapiens with 4 samples.

Results

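The genes described here encode the enzymes that make cholesterol and fatty acids, together with a few of their regulators and carriers. They were taken by symbol from the count files, as a list of 32 genes out of 23228 in the files, and each was placed by its step in the pathway. The rule names symbols and uses no measured value, but the list was chosen with earlier results of these data known. All 32 genes passed the filter on low counts, which kept 13712 of all genes. By step, 7 genes belonged to the mevalonate pathway, 3 to the stretch from squalene to lanosterol, 8 to the stretch from lanosterol to cholesterol and 4 to regulation and sterol transport. A further 4 genes supply acetyl-CoA or build the first fatty acids, and 6 lengthen, desaturate or activate them. The files list MSMO1 and SC5D under the older symbols SC4MOL and SC5DL, which are kept here.

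The data are RNA-seq read counts from A673, an established Ewing sarcoma line, after transfection with an siRNA against the atypical cadherin FAT4 or with a control siRNA that the labels call scramble. The groups were FAT4 siRNA 24 h, FAT4 siRNA 48 h, control siRNA 24 h and control siRNA 48 h, with 1 library each. All 4 groups shared the cell line, the RNAiMAX reagent and a serum-containing medium, and no other allele or agent is named. Every value therefore rests on single libraries, and neither replicate cultures nor untransfected cells were analysed here. The number of different siRNAs against FAT4 is not given in the sources used here.

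Cells build cholesterol from acetyl-CoA by way of mevalonate, squalene and lanosterol, and they build fatty acids from the same precursor by way of malonyl-CoA. Most genes of both routes are driven by the SREBP transcription factors, which the escort protein SCAP carries from the endoplasmic reticulum to the Golgi for cleavage when sterols are scarce, and which INSIG proteins hold back when sterols are plentiful. SREBF2 encodes the form tied mainly to sterol genes, SREBF1 encodes forms tied mainly to fatty acid genes, and the factors NF-Y and SP1 bind beside SREBPs at many of these promoters.

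Counts assigned to genes summed to 15196813 and 15413960 in the FAT4 siRNA libraries at 24 h and 48 h, against 22625833 and 19614913 in the control siRNA libraries. Levels are given in CPM, that is, read counts scaled for library size, with TMM factors that correct for differences in composition. FAT4 itself, the targeted gene, had 71.8 and 60.2 CPM in the FAT4 siRNA libraries at 24 h and 48 h, against 165 and 149 CPM in the control siRNA libraries. The ratio was 0.436 at 24 h (95% counting interval 0.407 to 0.467) and 0.405 at 48 h (0.376 to 0.436). Of 9 genes listed as marks of Ewing sarcoma cells, 8 were present in every library and CD99 was listed at 0 in all 4. CD99 is one of 18 coding genes in the files that GENCODE release 29 places on both the X and the Y chromosome, and 17 of the 18 were at 0 in every library, so its 0 is not read as absence of the transcript. The 9 Ewing genes summed to 9342 and 8151 CPM in the FAT4 siRNA libraries at 24 h and 48 h. In the control siRNA libraries they summed to 7204 and 6376 CPM. Most of the sum came from CAV1 and CCND1 (5098 and 3383 CPM in the FAT4 siRNA library at 24 h). At both times NKX2-2 and NR0B1 were lower with the FAT4 siRNA, and EWSR1, FLI1, CCND1, STEAP1, LIPI and CAV1 were higher. The part of these differences in the results was not tested. Each of 17 markers of blood, endothelial, epithelial, liver and fat cells stayed under 1 CPM, and their summed level was 1.41 to 1.42 CPM in the FAT4 siRNA libraries and 1.21 to 1.54 CPM in the control siRNA libraries.

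Promoter sequences from RefSeq (GRCh38.p14), cut to the 250 bases before each transcript start, were matched to 28 of the 32 genes, all but ACAT2, FASN, FDFT1 and SQLE, in 38 windows. The NF-Y box CCAAT stood on either strand in 26 of 38 windows (68.4%), against 32.7% of 22199 windows of coding genes, and 22 of the 28 genes had it. The GC box GGGCGG, the core of SP1 sites, stood in 86.8% of the windows, against 53.7% of all windows. The sterol regulatory element form TCACNCCAC was found in SREBF2 alone (2.63% of windows, against 0.883% of all), and the E-box form TCACGTGA in INSIG1 alone (2.63%, against 1.13%). A match is a description of letters and not a measured binding site, and no overlap among different motifs was scored. The stretches below show how the letters lie in genes whose values follow. Capitals mark the sterol regulatory element, the E-box form and CCAAT or its reverse complement ATTGG; all are written 5′ to 3′ on the strand of the gene.
INSIG1, chr7:155297698-155297837, plus strand: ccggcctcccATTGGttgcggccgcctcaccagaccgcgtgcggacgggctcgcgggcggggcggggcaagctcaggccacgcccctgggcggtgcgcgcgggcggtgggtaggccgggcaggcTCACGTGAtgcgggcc
SREBF2, chr22:41832955-41833044, plus strand: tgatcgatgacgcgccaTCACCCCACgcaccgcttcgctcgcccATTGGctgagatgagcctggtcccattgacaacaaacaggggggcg
DHCR7, chr11:71448424-71448498, minus strand: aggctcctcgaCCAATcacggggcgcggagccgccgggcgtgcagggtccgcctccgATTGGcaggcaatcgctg
NSDHL, chrX:152830913-152830992, plus strand: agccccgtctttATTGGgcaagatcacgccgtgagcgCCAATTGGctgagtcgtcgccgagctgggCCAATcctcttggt
MVD, chr16:88663162-88663261, minus strand: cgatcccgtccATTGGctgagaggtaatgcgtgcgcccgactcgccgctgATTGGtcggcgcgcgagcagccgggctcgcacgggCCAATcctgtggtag
MVK, chr12:109573624-109573763, plus strand: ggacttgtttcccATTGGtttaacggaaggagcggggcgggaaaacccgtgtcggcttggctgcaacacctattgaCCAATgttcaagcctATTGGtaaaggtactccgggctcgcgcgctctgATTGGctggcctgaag

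In INSIG1 the E-box form lay 56 to 49 bases before the transcript start, and the NF-Y box 170 to 166 bases before it on the other strand. In SREBF2 the sterol regulatory element lay 133 to 125 bases before the start, and the NF-Y box 106 to 102 bases before it. DHCR7 had 2 NF-Y boxes, MVD had 3, and NSDHL and MVK had 4 each; a pair of those in NSDHL, one on each strand, share letters in a single run that is its own reverse complement.

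The desaturases were the most abundant of these transcripts per length. On the scale of CPM per kilobase of transcript, FADS2, the delta-6 desaturase, had 326 and 488 in the FAT4 siRNA libraries at 24 h and 48 h, against 405 and 597 in the control siRNA libraries. FADS1, the delta-5 desaturase, and SCD, the stearoyl-CoA desaturase, came next in every library, at 272 and 237 CPM per kilobase in the control siRNA library at 24 h. The squalene synthase FDFT1 (180.4) and the last enzyme of the Kandutsch-Russell route, DHCR7 (139), were the highest sterol genes in that library. At the low end stood STARD4, a soluble sterol carrier, at 8.50, the cytosolic acetyl-CoA synthetase ACSS2 at 13.7, the ketosterol reductase HSD17B7 at 13.8 and the C14 sterol reductase TM7SF2 at 13.9 CPM per kilobase. These levels depend on the transcript taken for each gene, here the one with the longest coding sequence in GENCODE release 29. Counts of TM7SF2, which overlaps VPS51 on its own strand, and of FADS2, which overlaps FEN1 and lies against FADS1, may be shared with the neighbour, as may those of MVK with MMAB and of SREBF1 with RAI1 on the other strand, and FDPS, CYP51A1, HSD17B7, SCD and FADS2 have named pseudogene copies.

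**Figure D1:**
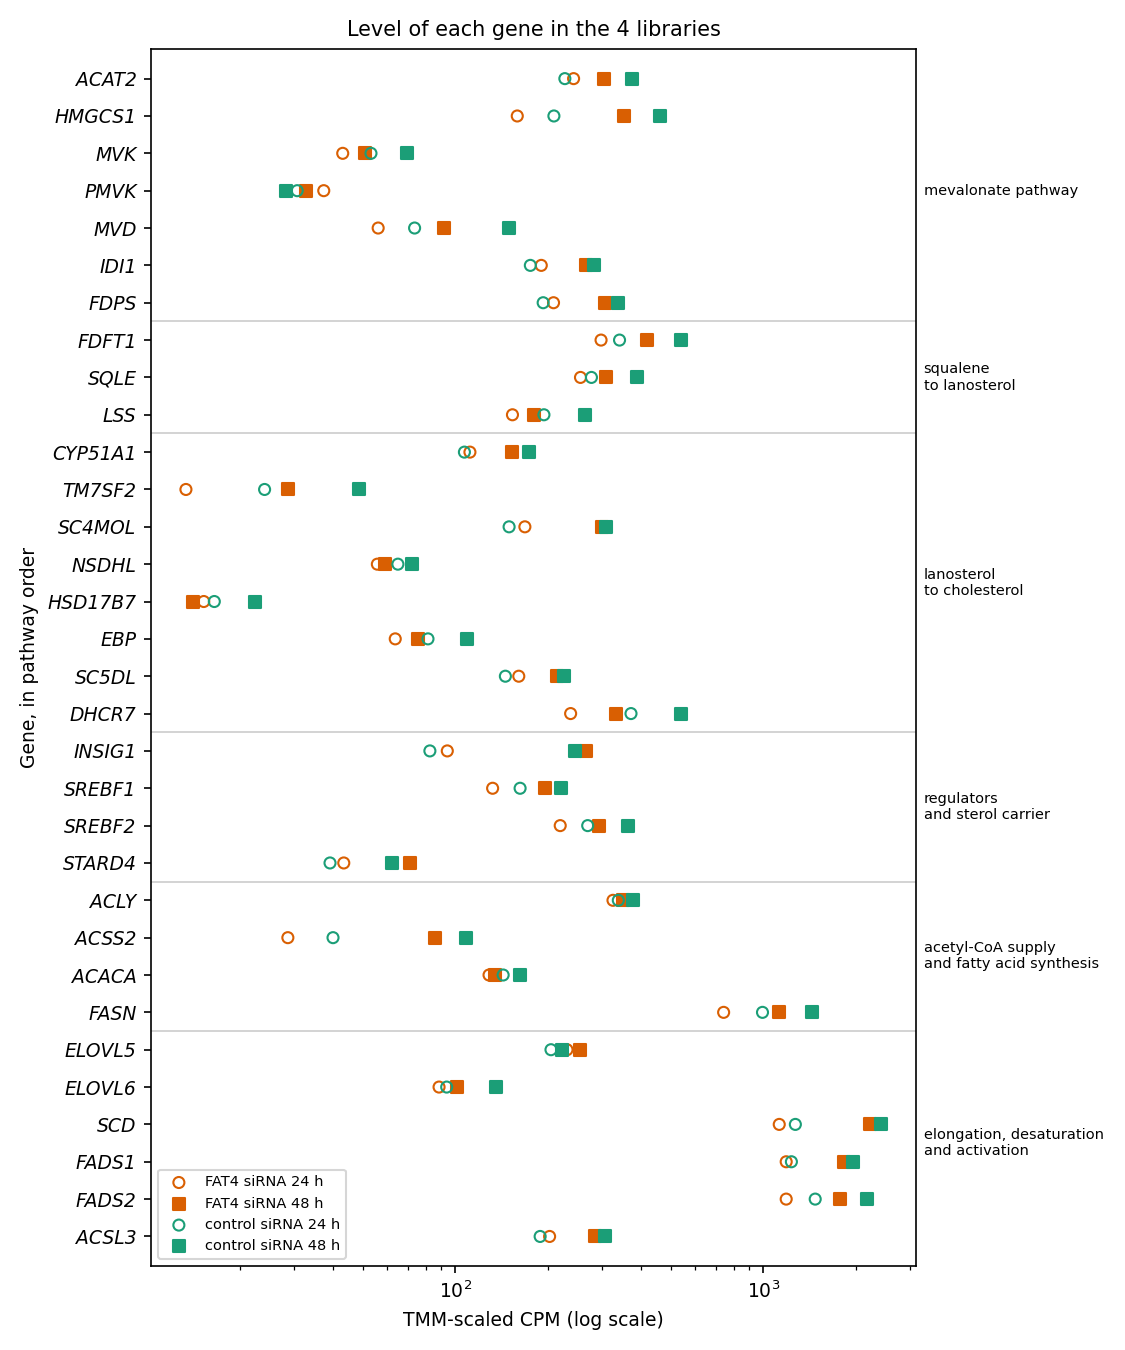
Level of each of the 32 genes (TMM-scaled CPM, log axis) in the 4 libraries, in pathway order; open circles are 24 h, filled squares 48 h, orange the FAT4 siRNA and green the control siRNA. SCD, FADS1 and FADS2 stand highest, TM7SF2 and HSD17B7 lowest, and most squares lie to the right of the circles of the same color.

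Set against the control siRNA and averaged over 24 h and 48 h, the FAT4 siRNA libraries held lower levels of many of these genes. Of the 32 genes, 17 fell and 0 rose in edgeR's quasi-likelihood test with Benjamini-Hochberg adjustment over all genes tested at 0.05. Over all 13712 genes 14.1% were called lower and 11.9% higher. The median log2 fold change was -0.23 over the 32 genes and -0.014 over all genes. Genes that fell were spread over every step, with 11 of 18 sterol enzymes, 2 of 4 regulators and carriers, and 4 of 10 fatty acid genes. The summed level of all 32 genes was 8192 and 12450 CPM in the FAT4 siRNA libraries at 24 h and 48 h, against 9256 and 14560 CPM in the control siRNA libraries, ratios of 0.885 and 0.855. At an unadjusted p under 0.05, edgeR had 2 of the 32 genes higher, PMVK and ELOVL5, and DESeq2 had 0 higher after adjustment. The fit left 1 residual degree of freedom, so its p-values say nothing of the spread between cultures. With bulk RNA, fewer expressing cells and less RNA per cell cannot be told apart.

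The number of calls depended on the model. With a correction for the GC content and length of transcripts, 11 of the 17 were still lower and PMVK was called higher (10.6% of genes lower and 7.42% higher under that correction). DESeq2 called 8 of the 17 lower (4.63% of all genes lower, 4.37% higher). HMGCS1, LSS, TM7SF2, EBP and DHCR7, all sterol enzymes, were lower under edgeR, under edgeR with the correction and under DESeq2. With RLE scaling, which like TMM sets the library sizes, 14 genes were lower, and SQLE, NSDHL and SREBF1 no longer passed. Without the time term, which moves the change with time into the residual, edgeR called 0 of the 32 genes (3 at an unadjusted p under 0.05).

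In the mevalonate pathway 3 of 7 genes fell. HMGCS1, which makes HMG-CoA, had 159 and 352 CPM in the FAT4 siRNA libraries at 24 h and 48 h, against 209 and 461 CPM in the control siRNA libraries. It fell by 0.39 on the log2 scale (SE 0.0898, edgeR adjusted p = 1.71e-04), by nearly the same ratio at both times, and it was the mevalonate gene that stayed lower under both alternatives. MVD, the mevalonate diphosphate decarboxylase, had 56.1 and 91.8 CPM with the FAT4 siRNA, against 73.7 and 149.7 CPM with the control siRNA. MVD fell by 0.56 (SE 0.0987, edgeR adjusted p = 6.08e-07), with the wider gap at 48 h. Its adjusted p was 0.0622 with the GC and length correction and 0.00285 under DESeq2. MVK, the mevalonate kinase, had 43.0 and 51.0 CPM with the FAT4 siRNA, against 53.2 and 69.4 CPM with the control siRNA, and fell by 0.38 (SE 0.110, edgeR adjusted p = 0.00438; 0.0852 with the correction and 0.1015 under DESeq2). PMVK, the kinase that acts on the product of MVK, went the other way in its values. It had 37.4 and 32.8 CPM with the FAT4 siRNA, against 30.6 and 28.1 CPM with the control siRNA, and its log2 fold change of 0.26 had an edgeR adjusted p of 0.118, or 0.0461 with the correction. ACAT2, the cytosolic thiolase at the head of the route, IDI1, the isomerase, and FDPS, which makes farnesyl diphosphate, had log2 fold changes of -0.11, 0.013 and -0.014 that missed the threshold.

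All 3 genes from squalene to lanosterol fell. FDFT1, the squalene synthase, had 297 and 419 CPM in the FAT4 siRNA libraries, against 341 and 538 CPM in the control siRNA libraries at 24 h and 48 h, and fell by 0.28 (SE 0.0887, edgeR adjusted p = 0.00908). SQLE, the squalene epoxidase, had 255 and 309 CPM with the FAT4 siRNA, against 276 and 388 CPM with the control siRNA; its fall of 0.22 was close to the threshold (SE 0.0893, edgeR adjusted p = 0.0474). LSS, which closes squalene epoxide into lanosterol, had 153 and 179 CPM with the FAT4 siRNA, against 194 and 264 CPM with the control siRNA, and fell by 0.45 (SE 0.0916, edgeR adjusted p = 1.92e-05). For all 3, the FAT4 siRNA library was the lower at both times, and the fall was deeper at 48 h. All 3 stayed lower with the GC and length correction, and DESeq2 called LSS only.

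Among the 8 genes from lanosterol to cholesterol, 5 fell, and TM7SF2 and DHCR7 had the largest changes of the 32 genes. TM7SF2 had 13.3 and 28.6 CPM in the FAT4 siRNA libraries at 24 h and 48 h, against 24.0 and 48.7 CPM in the control siRNA libraries. It fell by 0.80 on the log2 scale (SE 0.132, edgeR adjusted p = 5.64e-08), with a count of 197 in the FAT4 siRNA library at 24 h. DHCR7, which reduces the last double bond on the way to cholesterol, had 236 and 332 CPM with the FAT4 siRNA, against 371 and 540.5 CPM with the control siRNA. The FAT4 siRNA library at 48 h lay below even the control siRNA library at 24 h, and DHCR7 fell by 0.68 (SE 0.0893, edgeR adjusted p = 4.05e-12). EBP, the sterol isomerase that binds emopamil, had 63.7 and 75.3 CPM with the FAT4 siRNA, against 81.4 and 109 CPM with the control siRNA, and fell by 0.44 (SE 0.0998, edgeR adjusted p = 1.46e-04).

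NSDHL and HSD17B7, which work in the removal of the C4 methyl groups, fell by less sure margins. NSDHL had 55.8 and 58.8 CPM in the FAT4 siRNA libraries at 24 h and 48 h, against 65.0 and 72.5 CPM in the control siRNA libraries, and fell by 0.26 (SE 0.105, edgeR adjusted p = 0.0497). HSD17B7 had 15.2 and 14.1 CPM with the FAT4 siRNA, against 16.5 and 22.3 CPM with the control siRNA, and fell by 0.39 (SE 0.148, edgeR adjusted p = 0.0359). The gap in HSD17B7 lay at 48 h, and at 24 h its counting interval of 0.779 to 1.09 spanned a ratio of 1. The other C4 demethylation gene, SC4MOL, the lanosterol demethylase CYP51A1 and the lathosterol desaturase SC5DL had log2 fold changes of 0.060, -0.062 and 0.033, none past the threshold.

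**Figure D2:**
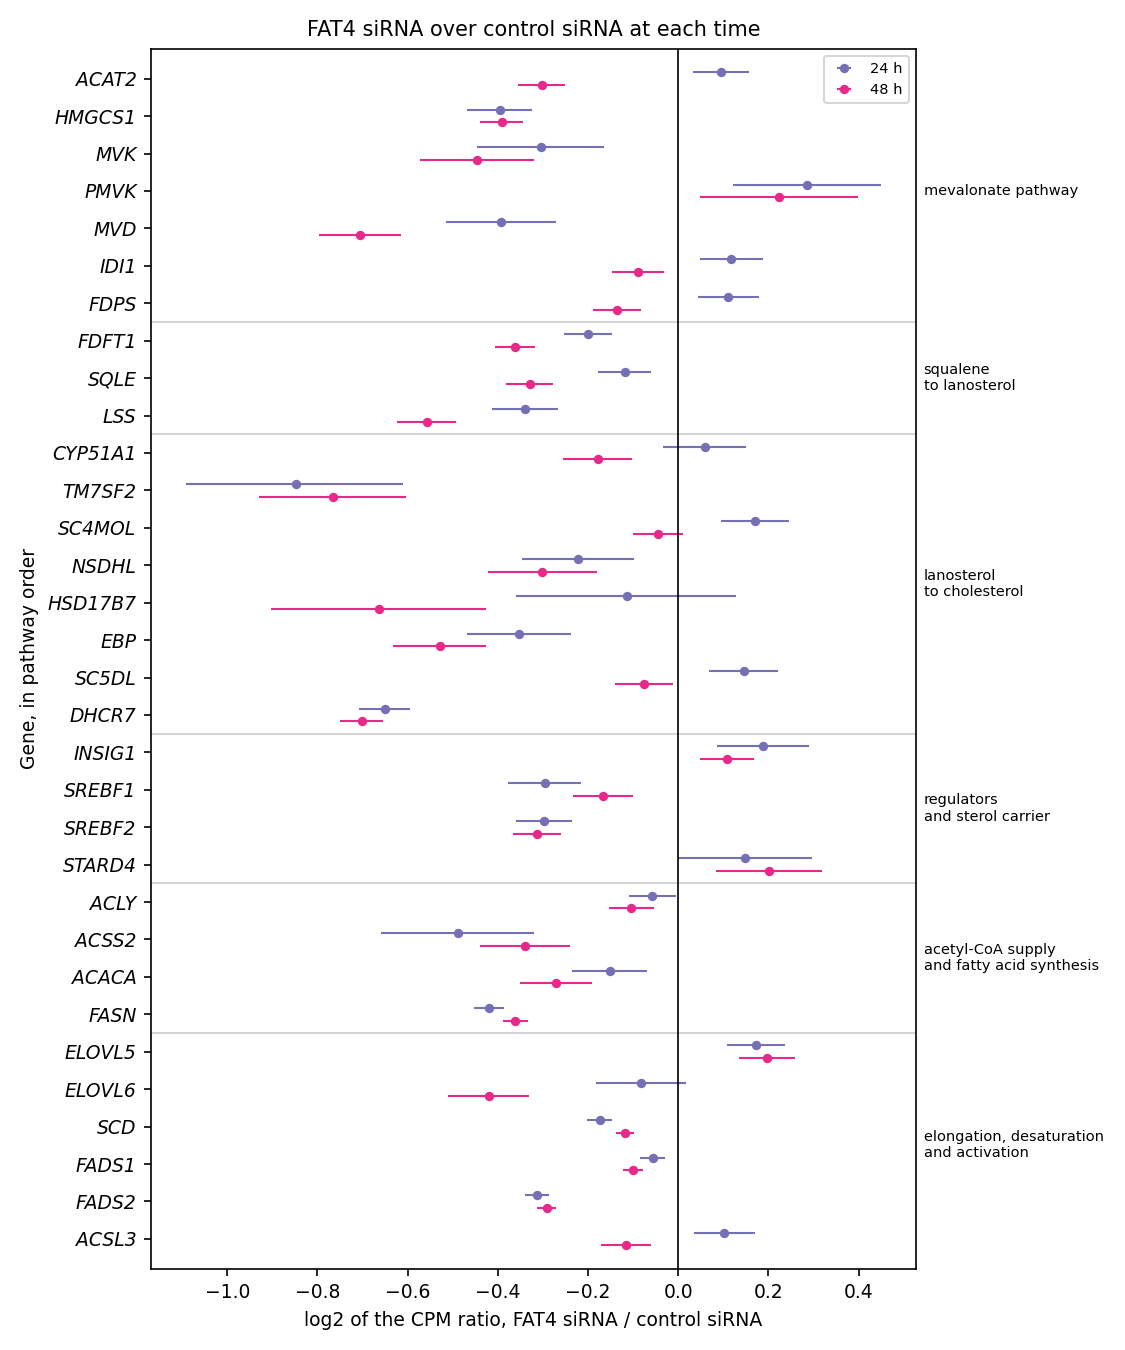
Ratio of the level with the FAT4 siRNA to that with the control siRNA (log2, x axis) for each gene at 24 h (purple) and 48 h (pink); bars are 95% counting intervals of single libraries and hold no spread between cultures. DHCR7 and TM7SF2 lie far left at both times, PMVK, INSIG1 and ELOVL5 right of 0 at both, and most sterol enzymes lie further left at 48 h.

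Of the 4 regulators and carriers, SREBF2 and SREBF1 fell. SREBF2 had 219 and 292 CPM in the FAT4 siRNA libraries at 24 h and 48 h, against 269 and 363 CPM in the control siRNA libraries, and fell by 0.30 (SE 0.0895, edgeR adjusted p = 0.00476). SREBF1 had 132 and 196 CPM with the FAT4 siRNA, against 162 and 219.9 CPM with the control siRNA, and fell by 0.23 (SE 0.0921, edgeR adjusted p = 0.0484). Neither call held with the GC and length correction (log2 fold changes -0.16 and 0.061, adjusted p = 0.137 and 0.603) or under DESeq2 (adjusted p = 0.0584 and 0.234). INSIG1, which retains SREBPs in the endoplasmic reticulum and is itself an SREBP target, had 94.1 and 264 CPM with the FAT4 siRNA, against 82.6 and 245 CPM with the control siRNA. The FAT4 siRNA library was the higher at both times, with a log2 fold change of 0.15 (edgeR adjusted p = 0.2501). STARD4, likewise a known SREBP2 target, had a log2 fold change of 0.18 (edgeR adjusted p = 0.238), which turned to -0.079 with the GC and length correction, while that of INSIG1 was 0.078.

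Of 4 genes for acetyl-CoA supply and the first steps of fatty acid synthesis, 2 fell. ACSS2, which makes acetyl-CoA from acetate, had 28.6 and 85.6 CPM in the FAT4 siRNA libraries at 24 h and 48 h, against 40.03 and 108 CPM in the control siRNA libraries, and fell by 0.41 (SE 0.106, edgeR adjusted p = 0.00129). FASN, the fatty acid synthase, had 742 and 1121 CPM with the FAT4 siRNA, against 993 and 1440.0 CPM with the control siRNA, and fell by 0.39 (SE 0.0882, edgeR adjusted p = 1.49e-04). With the correction the log2 fold change of FASN, whose transcript is 65.3% G and C, was -0.026 (adjusted p = 0.831). That of ACSS2 was -0.36 (0.0127). Under DESeq2 the adjusted p was 0.00382 for FASN and 0.0543 for ACSS2. ACLY, which splits citrate into acetyl-CoA, and ACACA, the acetyl-CoA carboxylase that commits it to fatty acids, had log2 fold changes of -0.081 and -0.21 that missed the threshold.

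Of 6 genes that lengthen, desaturate or activate fatty acids, FADS2 and ELOVL6 fell. FADS2 had 1185 and 1772 CPM with the FAT4 siRNA at 24 h and 48 h, against 1472 and 2169 CPM with the control siRNA. It fell by 0.30 (SE 0.0883, edgeR adjusted p = 0.00461). Its adjusted p was 0.208 with the correction and 0.0344 under DESeq2. ELOVL6, the elongase of saturated chains, had 88.4 and 101 CPM with the FAT4 siRNA, against 93.6 and 136 CPM with the control siRNA. It fell by 0.25 (SE 0.0964, edgeR adjusted p = 0.0367), with nearly all of the gap at 48 h. For ELOVL6 the adjusted p was 0.0108 with the correction and 0.276 under DESeq2. FADS1 lies beside FADS2 on the opposite strand. The log2 fold change of FADS1 was -0.078 (SE 0.0882, edgeR adjusted p = 0.561), and the difference between these neighbours was not tested. SCD, ELOVL5, an elongase of polyunsaturated chains, and ACSL3, an acyl-CoA synthetase of lipid droplets, had log2 fold changes of -0.15, 0.18 and -0.0080, none past the threshold.

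The change with FAT4 siRNA moved with the GC content of transcripts, over all genes and within the list. Across 13078 tested genes with a matched transcript the Spearman correlation of the log2 fold change with GC content was -0.382, and across the 32 genes it was -0.59; genes share libraries and are not independent, so no p is given. With these genes split into 4 equal bins, from the lowest to the highest GC content, the median log2 fold change of all genes was 0.14, 0.054, -0.051 and -0.19. The genes of the list that fell numbered 2 of 9, 2 of 5, 4 of 8 and 9 of 10 in those bins, against 7.52%, 10.2%, 14.7% and 25.7% of all genes. In the highest bin, PMVK alone did not fall. The median GC content of the list, 50.4% (range 34.2% to 65.6%), was near that of all genes, 49.1%.

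With the GC and length correction 9 of 18 sterol enzymes fell and PMVK rose, with a median log2 fold change of -0.28, against -0.27 without the correction. Of 10 fatty acid genes ACSS2 and ELOVL6 fell, with a median of -0.14, against -0.18 without it. The GC-poor transcripts IDI1, SC4MOL and SC5DL had corrected log2 fold changes of -0.18, -0.16 and -0.18, on the negative side, without passing the threshold. The 6 genes whose fall no longer passed were MVK, MVD, SREBF1, SREBF2, FASN and FADS2, all in the highest bin of GC content. The corrected fit also had 12.43 prior degrees of freedom for the dispersion, against infinite without the correction. The part of this difference in the lost calls was not tested. The difference between sterol and fatty acid genes was not tested.

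**Figure D3:**
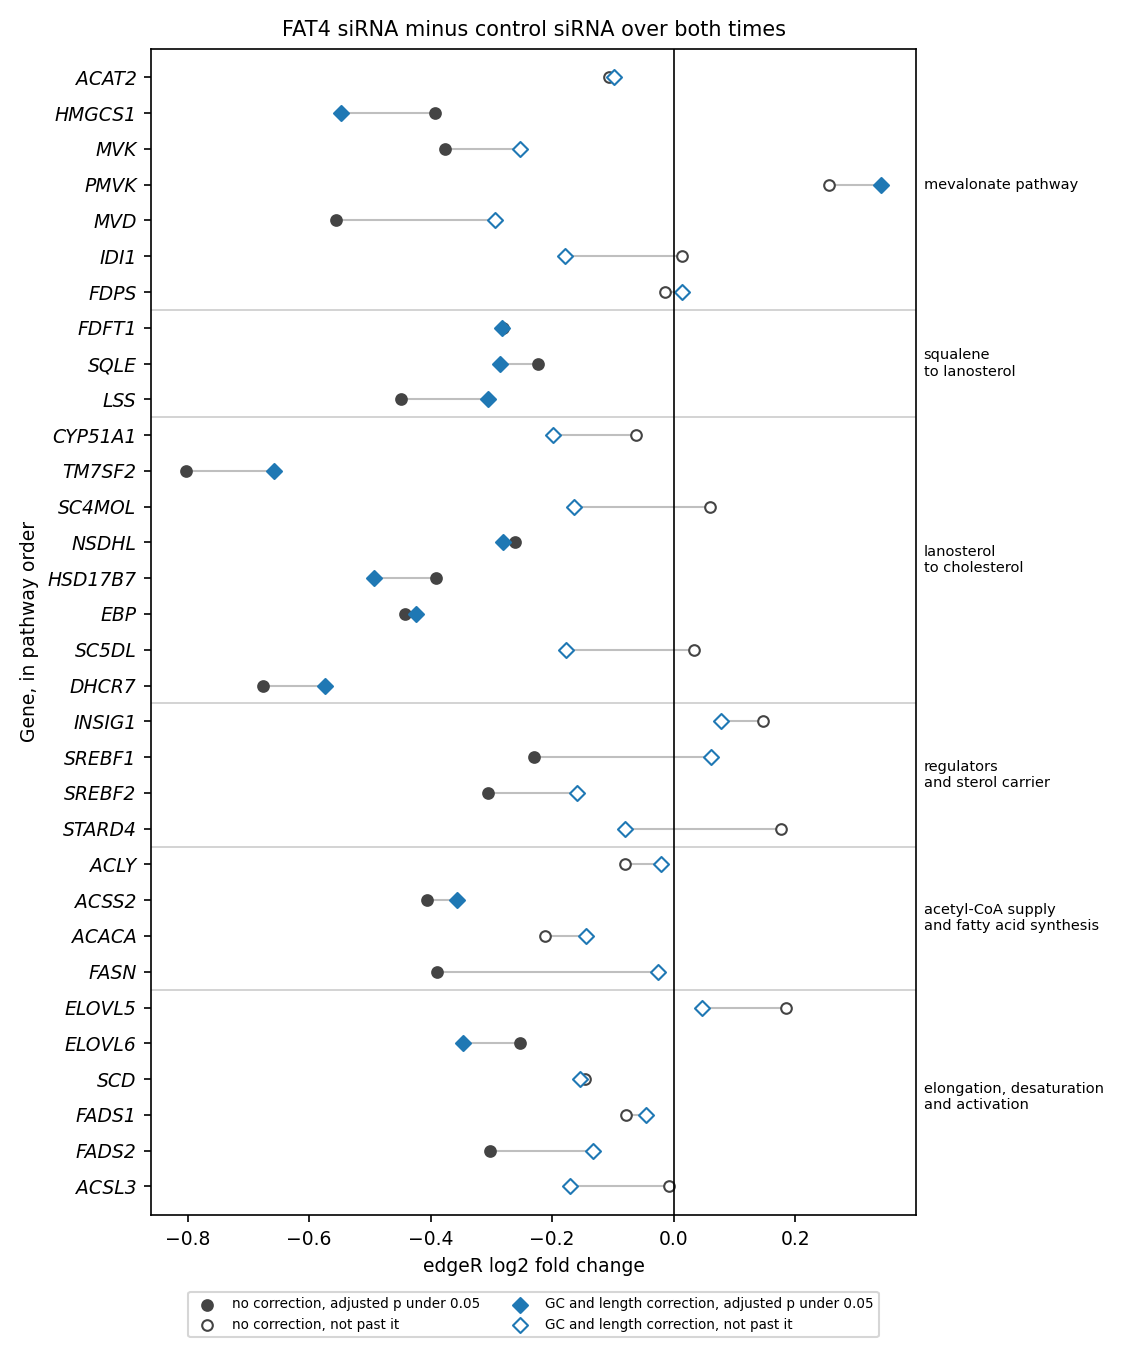
Log2 fold change of each gene, FAT4 siRNA minus control siRNA over both times (x axis), without (circles) and with (blue diamonds) the GC and length correction; filled marks passed an adjusted p of 0.05. DHCR7, TM7SF2, EBP and HMGCS1 stay filled on the left in both, FASN lies at -0.026 with the correction and at -0.39 without it, and PMVK is filled on the right with the correction only.

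**Figure D4:**
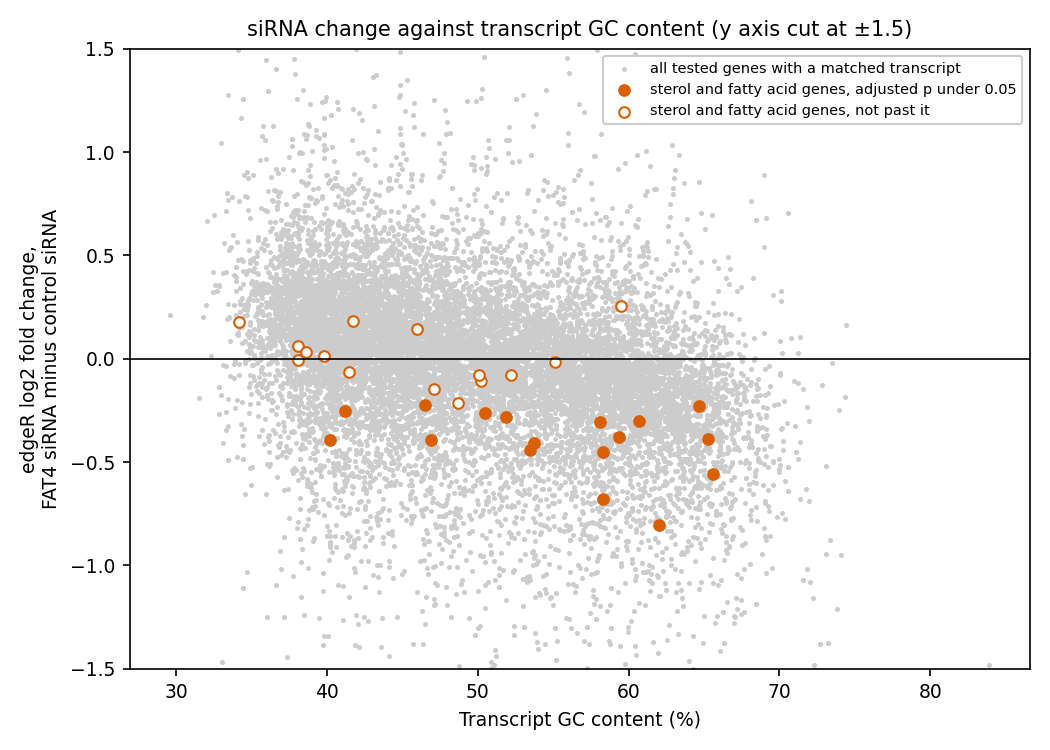
Log2 fold change, FAT4 siRNA minus control siRNA (y axis, limited to values between -1.5 and 1.5), against transcript GC content in percent (x axis). Grey marks all tested genes with a matched transcript, and orange the 32 genes, filled where the adjusted p was under 0.05. Grey and orange points both slope down to the right, and 9 of the 10 orange points in the highest of 4 GC bins are filled below 0.

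A short word in 3′ untranslated regions, TTGGACT or TGGACTA, had been picked earlier from these same ratios as more frequent among genes lower with the FAT4 siRNA. It was found in 4 of the 32 genes, against 14.1% of 12103 genes searched. The 4 were CYP51A1, ACACA, SCD and ACSL3, and none of them was among the 17 that fell. A counterpart word for genes higher with the FAT4 siRNA was in 2 of the 32 genes, HMGCS1 and ACACA, against 9.63% of the genes searched. HMGCS1 was among the 17 that fell. Both counts are small, and no conclusion was drawn from either word.

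At the single times no test is possible, and the ratios of FAT4 siRNA to control siRNA are values of 2 pairs of libraries. At 24 h, 6 of 32 genes were at least 1.3-fold lower (12.7% of all genes) and 0 were 1.3-fold higher (8.34%). The 6 were HMGCS1, MVD, TM7SF2, DHCR7, ACSS2 and FASN. At 48 h, 9 were at least 1.3-fold lower (15.2% of all genes) and 0 higher (12.1%). These were HMGCS1, MVK, MVD, LSS, TM7SF2, HSD17B7, EBP, DHCR7 and ELOVL6, all but ELOVL6 sterol enzymes. The median log2 ratio of the list was -0.13 at 24 h and -0.29 at 48 h, beside -0.025 and 0.0015 over all genes.

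Most sterol enzymes had a lower ratio at 48 h than at 24 h, which with 1 library per group could not be tested. The ratio of FAT4 siRNA to control siRNA was lower at 48 h than at 24 h in 16 of 18 sterol enzymes, HMGCS1 and TM7SF2 being the exceptions, with a median shift of -0.21 on the log2 scale. It was lower at 48 h in 5 of 10 fatty acid genes and 2 of 4 regulators and carriers, against 49.0% of all genes. For DHCR7 the ratio was 0.637 at 24 h (0.612 to 0.662) and 0.615 at 48 h (0.595 to 0.636), a near equal pair. For LSS it was 0.790 at 24 h (0.751 to 0.832) and 0.679 at 48 h (0.649 to 0.711), intervals that do not meet. These intervals cover counting error only and hold no spread between cultures, so the gap between them is no test of the times. The summed level of the mevalonate genes was 935 CPM with the FAT4 siRNA and 960.3 CPM with the control siRNA at 24 h, a ratio of 0.974, and 1402 CPM against 1701 CPM at 48 h, a ratio of 0.824. For the 6 genes of elongation, desaturation and activation the ratios of summed levels were 0.901 and 0.897. SCD, FADS1 and FADS2 made up most of these sums. Gene by gene, the ratio was lower at 48 h in 3 of the 6, with shifts from -0.335 to 0.0553 on the log2 scale. In the median over all genes by GC bin the siRNA ratios also differed between the times, at -0.24 and -0.11 on the log2 scale in the highest bin at 24 h and 48 h and 0.18 and 0.078 in the lowest; the part of GC content in the shift of the sterol enzymes was not tested.

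The comparison of 48 h with 24 h asked which of these genes differed with time in culture after transfection, whichever siRNA was used. It shares its libraries with the comparison of the siRNAs. Of the 32 genes 26 rose and 0 fell in edgeR's quasi-likelihood test (13.8% of all genes were called higher and 12.8% lower; at an unadjusted p under 0.05, 0 of the list were lower, and DESeq2 called 22 higher and 0 lower, with 3.87% of all genes higher and 4.7% lower). The median log2 fold change was 0.55 over the list and 0.0090 over all genes. With the GC and length correction 26 rose as well (12.6% of genes). Over all genes 51.9% of calls were higher with TMM scaling and 65.2% with upper-quartile scaling; 26 of the list rose with either scaling.

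INSIG1 and ACSS2 rose most. INSIG1 had 94.1 CPM at 24 h and 264 CPM at 48 h with the FAT4 siRNA, and 82.6 and 245 CPM with the control siRNA, and rose by 1.53 on the log2 scale (SE 0.0947, edgeR adjusted p = 2.74e-55). ACSS2 had 28.6 CPM at 24 h and 85.6 CPM at 48 h with the FAT4 siRNA, and 40.03 and 108 CPM with the control siRNA, and rose by 1.51 (SE 0.107, edgeR adjusted p = 1.40e-41). Both 48 h libraries lay far above both 24 h libraries for these genes. In the mevalonate pathway 6 of 7 rose, led by HMGCS1 at 1.15 (SE 0.0906, edgeR adjusted p = 7.89e-34) and MVD at 0.87. PMVK did not, with a log2 fold change of -0.16 (adjusted p = 0.378). All 3 genes from squalene to lanosterol rose, by 0.34 (LSS) to 0.58 (FDFT1).

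Of the 8 later sterol genes 6 rose. TM7SF2 rose by 1.06 (SE 0.132, edgeR adjusted p = 1.40e-13) and SC4MOL by 0.94 (SE 0.0911, edgeR adjusted p = 1.02e-22). SC4MOL had 168 CPM at 24 h and 299.8 CPM at 48 h with the FAT4 siRNA, and 149 and 309 CPM with the control siRNA. NSDHL and HSD17B7, its partners in C4 demethylation, had log2 fold changes of 0.12 and 0.18 that missed the threshold. All 4 regulators and carriers rose: beside INSIG1, STARD4 rose by 0.69, SREBF1 by 0.50 and SREBF2 by 0.43.

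Of the 10 fatty acid genes 7 rose. SCD had 1125 CPM at 24 h and 2222 CPM at 48 h with the FAT4 siRNA, and 1269 and 2412 CPM with the control siRNA, and rose by 0.95 (SE 0.0891, edgeR adjusted p = 3.26e-24). FADS1, FADS2, FASN and ACSL3 rose by 0.57 to 0.64, and ELOVL6 by 0.37. ACLY, ACACA and ELOVL5 had log2 fold changes of 0.13, 0.12 and 0.13 and did not pass. Both ACSS2 and ACLY make cytosolic acetyl-CoA, from acetate and from citrate. The ratio of 48 h to 24 h was 2.999 with the FAT4 siRNA and 2.71 with the control siRNA for ACSS2, and 1.08 and 1.12 for ACLY.

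Under each siRNA taken alone, 20 of 32 genes were at least 1.3-fold higher at 48 h with the FAT4 siRNA (17.1% of all genes) and 26 with the control siRNA (13.6%), and 0 were 1.3-fold lower with either (10.3% and 8.92% of all genes). The median log2 ratio was 0.48 with the FAT4 siRNA and 0.60 with the control siRNA. The ratio of 48 h to 24 h lay above 1 under both siRNAs in 30 of 32 genes, all but PMVK and HSD17B7, and its counting interval lay above 1 under both in 28. ACAT2 had a ratio of 1.26 with the FAT4 siRNA (1.203 to 1.31) and 1.66 with the control siRNA (1.60 to 1.72). Counts of ACAT2 may include reads of TCP1 and SOD2, which overlap it on the other strand, since the strand setting of the count is not given in the sources used here. The summed level of the list was 1.52 times as high at 48 h with the FAT4 siRNA and 1.57 times with the control siRNA. With these 4 groups, time in culture and time since transfection cannot be told apart.

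**Figure D5:**
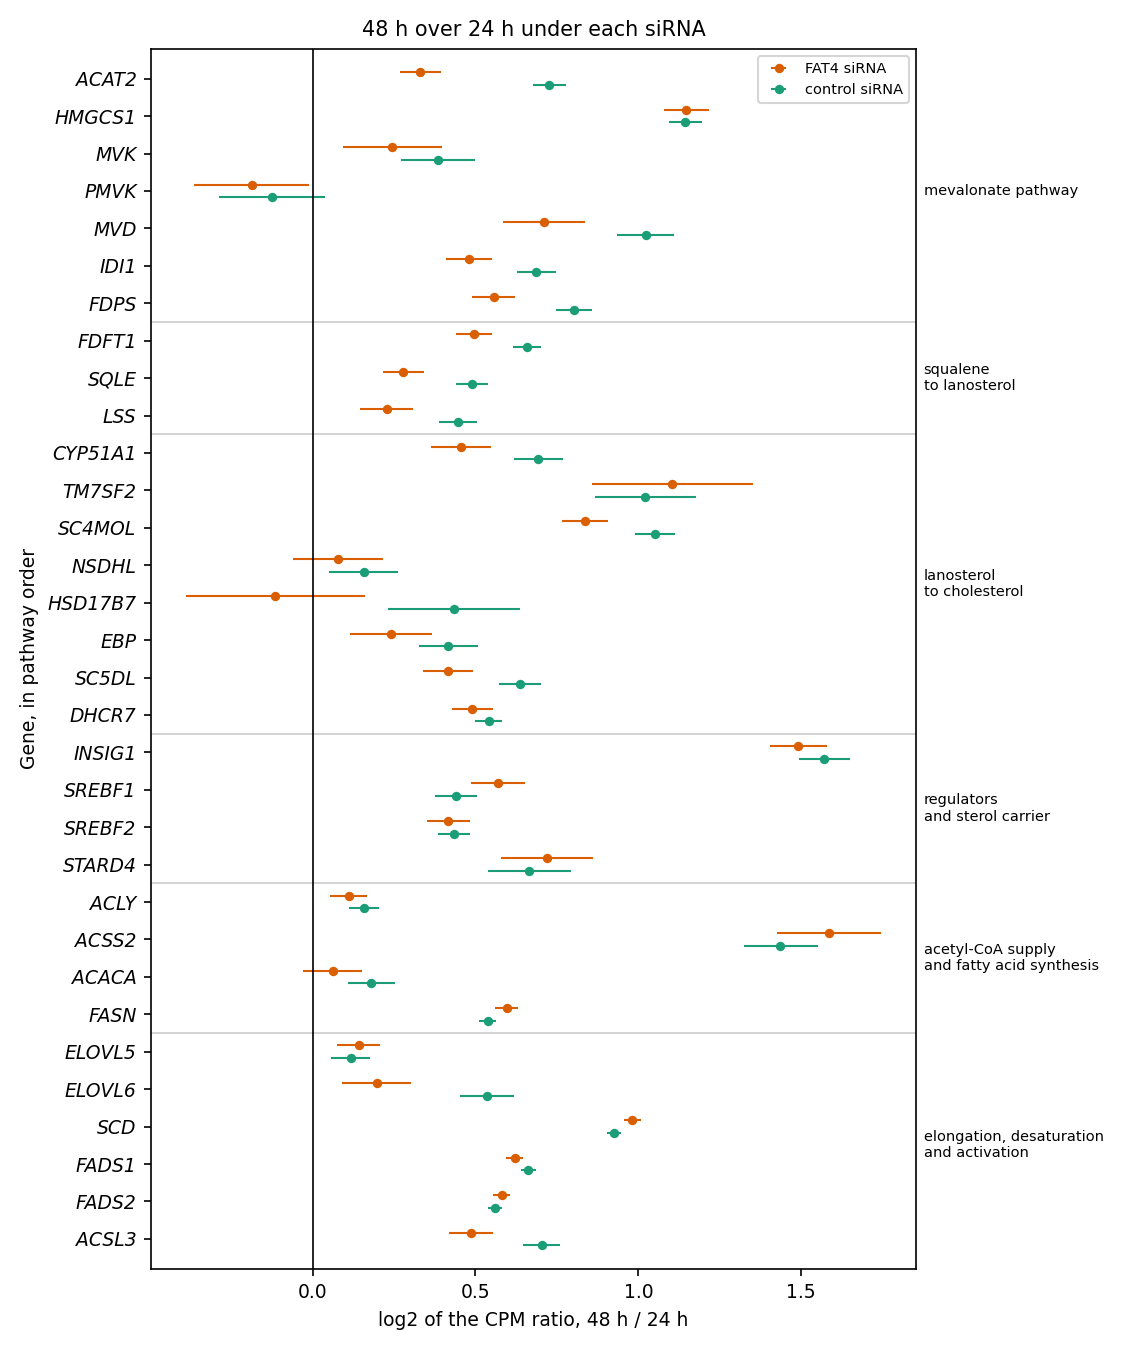
Ratio of the level at 48 h to that at 24 h (log2, x axis) for each gene with the FAT4 siRNA (orange) and the control siRNA (green); bars are 95% counting intervals of single libraries. INSIG1, ACSS2 and HMGCS1 lie furthest right and PMVK lies left of 0 with both siRNAs, and most sterol enzymes lie further right with the control siRNA.

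Further genes around the pathway were called in both directions with FAT4 siRNA, and DESeq2 called fewer than edgeR in each of the 5 lists. The shares of all genes called by edgeR, to set beside each count below, were 11.9% higher and 14.1% lower with FAT4 siRNA and 13.8% higher and 12.8% lower at 48 h. Of 14 genes of SREBP processing and its cofactors, 2 rose and 1 fell with FAT4 siRNA; 2 rose and 0 fell with the GC and length correction, and DESeq2 called 1 higher. ERLIN2, which takes part in sterol-dependent protein breakdown, rose by 0.35 and stayed higher with the correction (adjusted p = 0.0312) and under DESeq2 (adjusted p = 0.0459). SCAP fell by 0.37, but its log2 fold change was -0.15 with the correction (adjusted p = 0.282; 0.109 under DESeq2). The NF-Y subunit NFYB rose by 0.33, but had 0.088 with the correction (adjusted p = 0.537; 0.146 under DESeq2). At 48 h 2 of the 14 rose and 1 fell, with the same numbers under the correction and DESeq2: among them INSIG2 rose by 0.93 and AUP1 fell by 0.52.

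Of 17 genes that branch from the pathway or handle its products, 4 rose and 2 fell with FAT4 siRNA. With the correction 0 of them rose and 3 fell, and DESeq2 called 0 either way. GGPS1, the geranylgeranyl diphosphate synthase, rose by 0.44 in edgeR, with an adjusted p of 0.111 with the correction and 0.112 under DESeq2. COQ2, which prenylates the ubiquinone ring, fell by 0.60 and passed with the correction (adjusted p = 0.00921) but not under DESeq2 (0.153). C14orf1, which encodes the scaffold ERG28 of C4 demethylation, fell by 0.30 with FAT4 siRNA, where DESeq2 had an adjusted p of 0.134, and rose by 0.40 at 48 h.

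Of 23 further fatty acid genes tested (27 in the files), 1 rose and 4 fell with FAT4 siRNA; with the correction 0 rose and 3 fell, and DESeq2 called 1 higher and 3 lower. FADS3 fell by 0.60 and MID1IP1, which activates acetyl-CoA carboxylase, by 0.54, and both stayed lower with the correction (adjusted p = 0.0221 and 0.00615) and under DESeq2. SLC25A1, the carrier that exports citrate from mitochondria, fell by 0.50 (SE 0.107, edgeR adjusted p = 4.73e-05). Its adjusted p was 0.0791 with the correction and 0.01225 under DESeq2. SLC25A1 had 40.4 and 60.2 CPM with the FAT4 siRNA at 24 h and 48 h, against 56.4 and 86.3 CPM with the control siRNA. ACACB, the mitochondrial carboxylase, fell by 0.47 and ACSL4 rose by 0.38, and neither passed with the correction (adjusted p = 0.178 and 0.0936). Under DESeq2 the adjusted p was 0.316 for ACACB and 0.0208 for ACSL4. At 48 h 6 of the 23 rose and 1 fell, with SLC25A1 higher by 0.60, ACSL4 by 0.58 and OXSM by 0.57; DESeq2 did not call OXSM (adjusted p = 0.238).

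Of 21 genes of fatty acid oxidation tested (24 in the files), 4 rose and 3 fell with FAT4 siRNA; 2 rose and 3 fell with the correction, and DESeq2 called 1 each way. CPT1C, a brain-type carnitine palmitoyltransferase, had 3.79 and 6.08 CPM with the FAT4 siRNA, against 10.9 and 16.5 CPM with the control siRNA, and fell by 1.48 (SE 0.189, edgeR adjusted p = 7.44e-13). HADHB, the beta subunit of the mitochondrial trifunctional protein, rose by 0.52 (edgeR adjusted p = 1.03e-06). Both calls held with the correction and under DESeq2. At 48 h 6 of the 21 rose and 1 fell, against 2 and 1 under DESeq2, and PPARA, a nuclear receptor that drives oxidation genes, rose by 1.27.

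Of 11 genes of sterol efflux and the sterol receptor LXR, 1 rose and 3 fell with FAT4 siRNA. With the correction 1 rose and 0 fell, and under DESeq2 0 rose and 1 fell. The 3 falls ranged from 0.35 to 0.54. The gene that DESeq2 called was among them, with a fall of 0.48 (DESeq2 adjusted p = 0.0333). The LXR gene NR1H3 had 10.6 and 23.0 CPM in the FAT4 siRNA libraries at 24 h and 48 h, against 9.40 and 10.8 CPM in the control siRNA libraries, with most of the excess at 48 h. It rose by 0.66 with FAT4 siRNA (edgeR adjusted p = 5.28e-04). Its adjusted p was 0.0129 with the correction and 0.124 under DESeq2. At 48 h 6 of the 11 rose and 0 fell, against 3 and 0 under DESeq2. The exporter ABCG1 had 0.541 CPM at 24 h and 10.5 CPM at 48 h with the FAT4 siRNA, and 1.16 and 11.6 CPM with the control siRNA, and rose by 3.63 at 48 h (SE 0.268, edgeR adjusted p = 5.26e-39). A second exporter, ABCA1, rose by 1.55 at 48 h. Both started from few reads. At 24 h ABCG1 had counts of 8 with the FAT4 siRNA and 26 with the control siRNA, and ABCA1 had 14 and 45. The ratio of 48 h to 24 h for ABCG1 had a counting interval of 9.60 to 45.6 with the FAT4 siRNA and 6.65 to 15.6 with the control siRNA.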

How the data were processed

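RNA from 4 libraries of A673 cells was extracted with TRIzol, and stranded mRNA libraries were prepared from it (per the labels' protocols). Tools named in the submitters' processing notes are CASAVA 1.8.2, TopHat2, SAMtools and HTSeq, with the human build hg19. Each deposited file holds the reads of 1 library as whole counts per gene that the authors had not normalized. No source used here states the annotation or the strand setting. The 5 counter entries that name no gene were left out. Reads outside genes were 19.48% to 20.54% of the reads counted for a gene, for no gene or as ambiguous. Alignments that were not unique stand outside that share and numbered 43.14 to 44.63 per 100 of those reads.

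Members and lists were chosen with earlier results of these data known. edgeR 4.0.16 (R 4.3.3) was fitted with siRNA and time as additive terms, TMM scaling (factors 0.9727 to 1.026) and filterByExpr (minimum count 10, total 15). The fit has 1 residual degree of freedom and infinite prior degrees of freedom, so all genes share 1 dispersion trend, with a common biological coefficient of variation of 0.0737. Tests were two-sided with Benjamini-Hochberg adjustment at 0.05. Ratios at each time are log2 of CPM plus 1 for counts past 1.3-fold, and plain CPM ratios where an exact 95% Clopper-Pearson interval is given; intervals cover counting error only. The log2 scale with 1 added understates changes of low genes.

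GC content and length came from GENCODE release 29 (95.4% of tested genes matched), and entered as offsets through natural splines (5 and 4 degrees of freedom) within each library. The corrected fit had median prior degrees of freedom of 12.43, so it also differs from the main fit in its error model. DESeq2 1.42.0 and other scalings, filters, pseudocounts and folds were tried. The fit was tested on simulated data, where its share of false calls stayed under the threshold with 1 dispersion for all genes but went above it when the dispersion varied between genes, so its calls can hold more false ones than the adjusted p states. Named genes were all members by step, and up to 4 called genes of each further list with the largest fold changes; the rest of the further genes enter as counts. A further gene that this rule would name is not reported here.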

Additional observations from a re-analysis of the deposited data

Results flagged for a closer look

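Counting intervals of the ratio of FAT4 siRNA to control siRNA were set side by side for the times. In 5 of the 32 genes the interval lay above 1 at 24 h and below 1 at 48 h (15.6% of the list). The same held for 191 of all tested genes (1.39%). Such intervals narrow as counts rise, and the genes were not matched for counts. Counts of the 5 genes ran from 2372 (SC5DL, FAT4 siRNA at 24 h) to 7543 (ACAT2, control siRNA at 48 h). The part of read depth in these shares was not tested. The difference between the times was not tested, since each siRNA had 1 library per time. The log2 ratio of ACAT2, the cytosolic thiolase, was 0.0939 at 24 h and -0.3017 at 48 h. In the isomerase IDI1 it was 0.1172 at 24 h and -0.0892 at 48 h. FDPS, the farnesyl diphosphate synthase, had 0.1109 at 24 h and -0.1352 at 48 h. The lathosterol desaturase SC5DL had 0.1439 at 24 h and -0.0754 at 48 h. The acyl-CoA synthetase ACSL3 had 0.1015 at 24 h and -0.1151 at 48 h. IDI1, SC5DL and ACSL3 belong to the lowest bin of GC content. There the median log2 ratio of all genes was 0.1769 at 24 h and 0.0778 at 48 h. In the bin of ACAT2 and FDPS that median was -0.0793 at 24 h and -0.0132 at 48 h. The part of GC content in these ratios was not tested.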

How the results depend on the processing

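No paired analysis was possible because the labels carry no replicate numbers; with 1 library per siRNA and time, the time term of the fit already sets the siRNAs against each other within each time. The rise at 48 h held its count of 26 genes under RLE and upper-quartile scaling, without a filter, with a minimum mean of 5 CPM and with GC and length correction. The siRNA calls depended more on settings: 17 genes were lower, 14 with RLE factors, 16 with upper-quartile factors or the CPM minimum and 13 without a filter, where SQLE, NSDHL, SREBF1 and ELOVL6 no longer passed. DESeq2 called 8 lower, with 635 genes lower and 599 higher in all. The correction left 11 lower and 1 higher, 971 higher in all, with a median of -0.1733. With the longest transcript of each gene, an alternative chosen after seeing the data, 13 were lower and 1 higher, with a median of -0.165. That fit had infinite prior degrees of freedom, against 12.43 with the first correction. Signs turned with the correction in IDI1 (-0.1794; -0.1339 with the longest transcript), FDPS (0.0142; 0.0364), SC4MOL (-0.1646; -0.1619), SC5DL (-0.1766; -0.1769), SREBF1 (0.0614; 0.0156) and STARD4 (-0.0794; -0.053). ACSL3 had 0.0025 with DESeq2, 0.002 with RLE factors and 0.0 without a filter, but -0.1701 with the correction. Without the time term edgeR called 0 of the list and 0 of all genes either way (3 and 1706 at an unadjusted p under 0.05), and IDI1 had -0.0063. Without the siRNA term 4 of the list were higher at 48 h, with 46 genes higher and 4 lower in all. Both of those fits put the left-out factor into the residual. The median siRNA ratio was -0.1344 from the pair at 24 h and -0.2939 from the pair at 48 h. For time, DESeq2 called 531 genes higher and 645 lower in all, the median of the list was 0.6007 with upper-quartile factors and 0.4809 from the FAT4 siRNA pair alone. Scaled to total counts, the median time ratio was 0.5417 with the FAT4 siRNA and 0.6511 with the control siRNA. At 24 h, 12 genes of the list were 1.2-fold lower (21.4% of all genes) and 1 higher (15.9%), and 2 were 1.5-fold lower (4.37%). At 48 h, 18 were 1.2-fold lower (22.8%) and 4 were 1.5-fold lower (7.3%). With time, 10 of the list were 1.5-fold higher with the FAT4 siRNA (8.42%) and 16 with the control siRNA (5.81%). Depth limited TM7SF2 and HSD17B7 most.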
